A study of Mus musculus with 3 samples.

Results

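DNA replication and S phase genes are the 38 genes described here, chosen by name and role, out of 31053 genes counted in every library. All 38 were present in the count tables. Single-cell RNA-seq with 10x 3' chemistry was run on Kit-enriched bone marrow cells of C57BL/6 mice in 3 libraries. The rechallenged library came from mice given E. coli a second time and is labelled 48 h, the challenged once library from mice given E. coli a single time and is labelled 24 h, and the unchallenged library from mice at steady state. Each group was 1 library with no replicate, so intervals cover counting error only, no test between groups was possible, and the number of challenges cannot be told apart from the labelled time or the library. The labels do not say whether animals were pooled or from which injection the hours were counted. The series' own design text differs from them, since it counts 2 samples and names another treatment, and the groups here follow the labels of the 3 samples.

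Replication starts when origins are licensed in G1 by loading the MCM helicase, is fired in S phase when Cdc45 and GINS activate that helicase, and proceeds with primase and polymerases, a sliding clamp, flap removal and ligation. Nucleotide synthesis, fork checkpoint proteins and factors that rebuild chromatin act alongside. Many of these genes are E2F targets, held down in quiescent cells and transcribed at the G1 to S boundary. In bone marrow most haematopoietic stem cells are quiescent, progenitors cycle, and neutrophils leave the cell cycle as they mature.

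The libraries held 8923, 9060 and 9684 cell barcodes and 95522747, 135079828 and 119646078 UMIs (rechallenged, challenged once, unchallenged). After filters and doublet removal 8286, 8355 and 8814 cells remained, with a median of 10250.5, 13004 and 10962.5 UMIs and 4.10%, 2.58% and 2.06% mitochondrial UMIs. Libraries shared 103 to 125 barcodes pairwise. Cells were clustered without the replication and mitotic genes and named from marker lists, which gave 12 cell classes. The source label calls the cells neutrophils, whereas the clusters also carried markers of stem and progenitor, erythroid, megakaryocyte, monocyte, dendritic and lymphoid cells. Some clusters were very unequally split between libraries. An immature neutrophil-like cluster held 1079, 67 and 70 cells, a mature neutrophil-like cluster 436, 285 and 4, and a B lineage-like cluster 18, 912 and 615 (rechallenged, challenged once, unchallenged).

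Part of the set shares a promoter feature that had no role in choosing it. RefSeq gave promoter windows, from 250 bases before to 50 bases after a transcript start on GRCm38.p6, for 32 of the 38 genes. An E2F-type motif, any of TTTCCCGC, TTTCGCGC, TTTGCCGC and TTTGGCGC on either strand, occurred in 14 of the 32 (43.8%). The same motif occurred in 14 of 38 matched other replication genes (36.8%), in 1 of 24 mitotic genes (4.17%) and in 580 of all 19407 genes with a window (2.99%). Mcm6, Mcm3, Mcm7 and Mcm5 had more than 1 match each. A match describes letters in the window and is not a binding site, and no match says nothing about the factor. The windows of Mcm6 at chr1:128359656-128359955, Mcm3 at chr1:20820263-20820562 and Mcm7 at chr5:138171834-138172133 are shown, all read on the minus strand, with matches in capitals. Mcm6 holds the most matches, 3, and Mcm3 and Mcm7 were taken before Mcm5, which ties with them at 2, for their higher level in HSPC-like cells. The 12 capitals in a row in the Mcm6 window are 2 overlapping matches.
Mcm6: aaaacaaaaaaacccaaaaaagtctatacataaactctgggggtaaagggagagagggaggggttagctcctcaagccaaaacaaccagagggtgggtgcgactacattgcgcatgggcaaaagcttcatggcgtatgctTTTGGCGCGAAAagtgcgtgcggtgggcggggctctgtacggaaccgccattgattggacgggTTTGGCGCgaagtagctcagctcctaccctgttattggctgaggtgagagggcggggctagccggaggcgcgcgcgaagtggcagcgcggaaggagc
Mcm3: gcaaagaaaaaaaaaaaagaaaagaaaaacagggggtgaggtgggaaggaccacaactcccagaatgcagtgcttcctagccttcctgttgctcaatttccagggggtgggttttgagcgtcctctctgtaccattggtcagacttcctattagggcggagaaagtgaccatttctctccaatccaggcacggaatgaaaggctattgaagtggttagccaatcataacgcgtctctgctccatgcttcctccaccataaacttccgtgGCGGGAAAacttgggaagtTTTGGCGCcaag
Mcm7: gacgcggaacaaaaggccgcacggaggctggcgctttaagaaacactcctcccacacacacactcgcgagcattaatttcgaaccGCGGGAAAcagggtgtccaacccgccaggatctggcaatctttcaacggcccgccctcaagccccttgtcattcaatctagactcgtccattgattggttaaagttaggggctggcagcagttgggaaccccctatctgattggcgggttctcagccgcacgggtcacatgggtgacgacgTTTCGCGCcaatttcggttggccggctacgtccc

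Haematopoietic stem and progenitor-like (HSPC-like) cells held more replication transcripts after 1 challenge than at steady state. Values are UMIs per 1000000, from cells of at least 2000 UMIs each drawn at random down to 2000. In the paragraphs on single genes below, levels, intervals and ratios come from 1 random draw. For HSPC-like cells they pool 2 clusters whose mix differed between libraries, as described further below. Single-gene values are not given by cluster. Summed over the 38 genes the level was 2501.5 (2417 to 2588) in 658 rechallenged cells, 3274 (3195 to 3354) in 999 challenged once cells and 2232 (2149 to 2317) in 612 unchallenged cells (95% Poisson intervals). Challenged once cells were 1.47-fold above unchallenged cells (95% interval 1.40 to 1.53), and all 37 genes that reached 30 UMIs in both libraries together were higher. Of these, 10 were at least 1.5-fold higher and 0 at least 1.5-fold lower after adding 10 to each level, where 3.41% of 7604 genes were that much higher and 3.2% that much lower. The genes' median log2 ratio was 0.50, against 0.00 for all genes tested. Ccne1 was under that count, with 6.08 in rechallenged, 7.51 in challenged once and 5.72 in unchallenged cells. Averaging over all possible draws instead of 1 gave 1.42-fold and 9 genes, where 1.07% of all genes tested were at least 1.5-fold higher. It ended the calls of Cdc45 (0.44), Mcm3 (0.57) and Pcna (0.29) and added Gins2 (0.65) and Rrm1 (0.61). Cells of 6000 to 12000 UMIs alone gave 1.32-fold. With doublet calls kept in a new clustering the fold was 1.23 and 2 genes passed 1.5-fold. That clustering also named a further cluster HSPC-like, with 298 rechallenged, 450 challenged once and 301 unchallenged cells. Its leading genes Apoe, F2r, Gata2 and Mfsd2b also led the megakaryocyte-like cluster of the main clustering, so the class itself changed. Without drawing down the fold was 1.31 and 2 genes passed. The share of all genes past 1.5-fold was not computed with doublet calls kept or without drawing down.

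**Figure D1:**
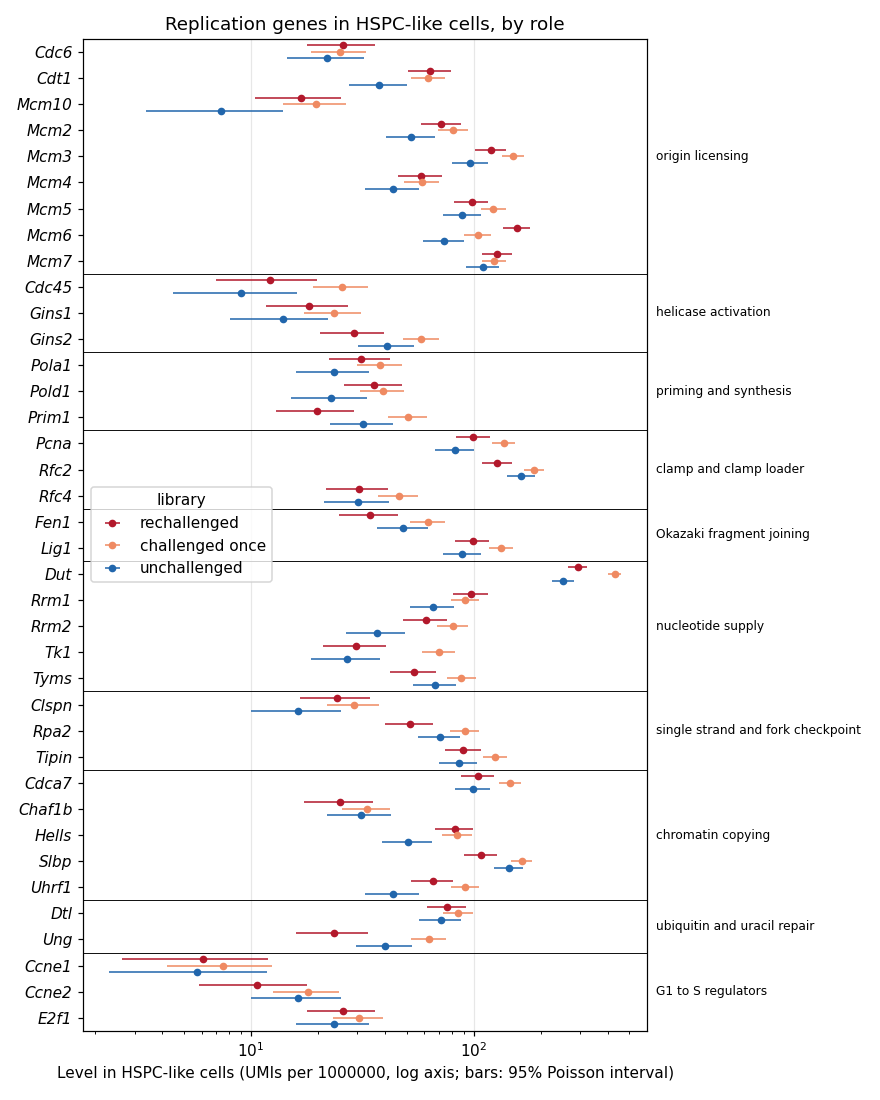
Level of each of the 38 replication genes in HSPC-like cells (UMIs per 1000000, log axis), grouped by role, with 1 point per library and 95% Poisson intervals. Challenged once points lie right of unchallenged points for all 38 genes; Mcm6 is the gene whose rechallenged point lies furthest right of its challenged once point.

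Licensing genes had close summed levels in rechallenged and challenged once HSPC-like cells. Their summed level was 737.1 in rechallenged, 747.7 in challenged once and 531.9 in unchallenged HSPC-like cells. Mcm6, a subunit of the MCM helicase (chr1:128331590-128359664, minus strand, GRCm38, GENCODE M21), had 157 (136 to 179) in rechallenged, 104 (90.4 to 119) in challenged once and 73.5 (59.1 to 90.4) in unchallenged cells, in an order unlike most members. Its log2 ratio was 0.995 for rechallenged over unchallenged and 0.55 for rechallenged over challenged once. Cdt1, which loads MCM onto origins, had 63.8 (50.9 to 79.0) in rechallenged, 62.6 (52.1 to 74.5) in challenged once and 37.6 (27.5 to 50.1) in unchallenged cells, so both challenged libraries stood above the unchallenged one. Mcm10, which helps start the helicase, was low throughout, with 16.7 (10.5 to 25.3) in rechallenged, 19.5 (13.9 to 26.7) in challenged once and 7.35 (3.36 to 14.0) in unchallenged cells, and its challenged once over unchallenged ratio was 0.77. Mcm3, another helicase subunit, had 119 (101 to 139) in rechallenged, 151 (134 to 169) in challenged once and 96.4 (79.8 to 115) in unchallenged cells, with the challenged once library highest. Mcm5 followed the same order, with 98.0 (81.8 to 116) in rechallenged, 123 (108 to 139) in challenged once and 89.1 (73.1 to 107) in unchallenged cells, but did not reach 1.5-fold in any comparison. The remaining licensing genes, Mcm2, Mcm4, Mcm7 and Cdc6, had challenged once over unchallenged log2 ratios from 0.13 (Cdc6) to 0.55 (Mcm2). Of the last 300 bases of annotated transcripts of Mcm7, 52.0% of 31-base stretches also occur in Gm5487, so its counts are uncertain, as are those of Mcm5 (10.8% shared with other genes) and Mcm4 (8.23%).

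Helicase activators and priming genes were highest in the challenged once library. Cdc45, part of the active helicase, had 12.2 (6.95 to 19.7) in rechallenged, 25.5 (19.0 to 33.6) in challenged once and 8.99 (4.49 to 16.1) in unchallenged cells, with log2 ratios of 0.90 for challenged once over unchallenged and -0.68 for rechallenged over challenged once. Over all draws both Cdc45 ratios were smaller and under 1.5-fold. Gins2, a GINS subunit, had 28.9 (20.4 to 39.6) in rechallenged, 58.1 (48.0 to 69.6) in challenged once and 40.8 (30.3 to 53.9) in unchallenged cells, and its rechallenged over challenged once ratio was -0.81. Gins1 kept the order of Cdc45 at lower amplitude, with 18.2 (11.7 to 27.1) in rechallenged, 23.5 (17.3 to 31.3) in challenged once and 13.9 (8.09 to 22.2) in unchallenged cells. Prim1, the catalytic primase subunit, had 19.8 (12.9 to 28.9) in rechallenged, 50.6 (41.2 to 61.4) in challenged once and 31.9 (22.7 to 43.6) in unchallenged cells, the lowest value being in the rechallenged library. Its log2 ratio of rechallenged over challenged once was -1.02. Pola1, the catalytic subunit of polymerase alpha, had 31.2 (22.4 to 42.3) in rechallenged, 38.04 (29.97 to 47.6) in challenged once and 23.7 (15.9 to 34.0) in unchallenged cells. Pold1, that of polymerase delta, had 35.7 (26.2 to 47.5) in rechallenged, 39.0 (30.9 to 48.7) in challenged once and 22.9 (15.2 to 33.1) in unchallenged cells. For Pola1 and Pold1 the rechallenged and challenged once intervals overlapped.

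Clamp and fragment-joining genes were also highest in the challenged once library. Pcna, the sliding clamp, had 99.5 (83.2 to 118) in rechallenged, 136 (120.4 to 153) in challenged once and 82.5 (67.2 to 100.3) in unchallenged cells, a log2 ratio of 0.66 for challenged once over unchallenged. Over all draws that Pcna ratio was smaller and under 1.5-fold. Rfc2, a clamp loader subunit, was the second most abundant member in HSPC-like cells and was lowest in the rechallenged library, with 128 (109 to 148) in rechallenged, 186 (168 to 206) in challenged once and 163 (142 to 188) in unchallenged cells. Rfc4, another loader subunit, had 30.4 (21.7 to 41.4) in rechallenged, 46.0 (37.1 to 56.5) in challenged once and 30.2 (21.3 to 41.7) in unchallenged cells, rechallenged and unchallenged cells being alike in level. Fen1, the flap endonuclease that trims Okazaki fragments, had 34.2 (24.9 to 45.8) in rechallenged, 62.1 (51.6 to 74.0) in challenged once and 48.2 (36.7 to 62.2) in unchallenged cells, with -0.71 for rechallenged over challenged once. Lig1, which seals the nicks, had 98.8 (82.5 to 117) in rechallenged, 133 (117 to 149.6) in challenged once and 89.1 (73.1 to 107) in unchallenged cells and did not pass 1.5-fold.

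Nucleotide supply genes included the most abundant member and the widest challenged once difference. Their summed level was 535.0 in rechallenged, 760.3 in challenged once and 447.7 in unchallenged HSPC-like cells. Dut, which removes dUTP (chr2:125247190-125258608, plus strand), was the most abundant member, with 293 (265 to 324) in rechallenged, 430.4 (402 to 460.2) in challenged once and 252 (224 to 281) in unchallenged cells. Tk1, thymidine kinase (chr11:117815526-117826092, minus strand), had 29.6 (21.1 to 40.5) in rechallenged, 69.6 (58.5 to 82.1) in challenged once and 27.0 (18.6 to 37.9) in unchallenged cells, and its log2 ratios were 1.11 for challenged once over unchallenged and -1.01 for rechallenged over challenged once. Rechallenged and unchallenged Tk1 intervals overlapped. Rrm2, the regulated subunit of ribonucleotide reductase, had 60.8 (48.2 to 75.7) in rechallenged, 80.6 (68.6 to 94.0) in challenged once and 36.8 (26.8 to 49.2) in unchallenged cells, with 0.95 for challenged once over unchallenged. Rrm1, its partner subunit, differed in order from Tk1, with 97.3 (81.1 to 116) in rechallenged, 91.6 (78.8 to 106) in challenged once and 65.4 (51.8 to 81.3) in unchallenged cells. Tyms, which makes dTMP, had 54.0 (42.1 to 68.1) in rechallenged, 88.1 (75.6 to 102) in challenged once and 67.0 (53.3 to 83.2) in unchallenged cells and was lowest in rechallenged cells. Counts of Rrm2 and Tyms are uncertain, since 25.8% and 19.5% of their 31-base end stretches occur in other genes, among them Tyms-ps for Tyms.

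Of the checkpoint, repair, chromatin and G1 to S genes, some were lowest in rechallenged cells and some in unchallenged cells. Rpa2, which coats single-stranded DNA, had 51.7 (40.1 to 65.5) in rechallenged, 91.1 (78.3 to 105) in challenged once and 70.3 (56.2 to 86.8) in unchallenged cells. Ung, a uracil glycosylase, had 23.6 (16.0 to 33.4) in rechallenged, 63.1 (52.5 to 75.1) in challenged once and 40.03 (29.6 to 52.9) in unchallenged cells. Both were lowest in rechallenged cells. The rechallenged over challenged once log2 ratio of Ung was -1.12. Clspn, a fork checkpoint mediator, had 24.3 (16.6 to 34.3) in rechallenged, 29.0 (22.0 to 37.5) in challenged once and 16.3 (9.98 to 25.2) in unchallenged cells. Tipin, another, had 89.7 (74.2 to 107) in rechallenged, 125 (110.1 to 142) in challenged once and 85.8 (70.2 to 104) in unchallenged cells. Clspn and Tipin had log2 ratios of 0.57 and 0.50 for challenged once over unchallenged.

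Uhrf1, which helps copy DNA methylation after replication, had 65.3 (52.3 to 80.7) in rechallenged, 91.6 (78.8 to 106) in challenged once and 43.3 (32.4 to 56.6) in unchallenged cells. Hells, a chromatin remodeller, had 82.1 (67.3 to 99.1) in rechallenged, 84.1 (71.8 to 97.8) in challenged once and 50.7 (38.8 to 64.9) in unchallenged cells. The challenged once over unchallenged log2 ratio was 0.93 for Uhrf1 and 0.63 for Hells. Cdca7, a partner of Hells, had 105 (88.1 to 124) in rechallenged, 146 (129 to 163) in challenged once and 98.9 (82.0 to 118) in unchallenged cells. Slbp, the histone stem-loop binding protein, had 108 (90.9 to 127) in rechallenged, 164 (147 to 183) in challenged once and 144 (123 to 167) in unchallenged cells. Cdca7 and Slbp were both highest in challenged once cells. Slbp counts are uncertain (10.7% of end stretches shared), as are those of Uhrf1 (7.78%). Dtl, a ubiquitin ligase adaptor, had 76.0 (61.8 to 92.4) in rechallenged, 85.1 (72.8 to 98.9) in challenged once and 71.1 (56.9 to 87.7) in unchallenged cells, with overlapping intervals. Chaf1b, a chromatin assembly subunit, had a log2 ratio of 0.07 for challenged once over unchallenged. E2f1, the G1 to S transcription factor, had 25.8 (17.9 to 36.1) in rechallenged, 30.5 (23.4 to 39.2) in challenged once and 23.7 (15.9 to 34.0) in unchallenged cells. Ccne2, a cyclin E, had 10.6 (5.82 to 17.8) in rechallenged, 18.0 (12.6 to 24.9) in challenged once and 16.3 (9.98 to 25.2) in unchallenged cells. For E2f1 and Ccne2 the intervals of all 3 libraries overlapped.

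Rechallenged HSPC-like cells stood between the other libraries in summed level, and the position depended on the processing. Against unchallenged cells the fold was 1.12 (1.06 to 1.18), with 5 of 36 genes at least 1.5-fold higher (Hells, Rrm2, Mcm10, Cdt1 and Mcm6) and 0 lower, where 3.94% of 6870 genes were that much higher and 16.3% that much lower. These calls rest on 1 random draw. Over all draws 3 genes were higher, Cdt1 (0.71), Mcm6 (0.84) and Rrm1 (0.74), and 1 was lower, Ung (-0.66), while Hells (0.49), Mcm10 (0.54) and Rrm2 (0.31) were under 1.5-fold. Of all genes tested, 2.10% were then at least 1.5-fold higher and 12.1% at least 1.5-fold lower. Averaged over all draws the fold was 1.07, without drawing down it was 0.99, with doublet calls kept 0.97, with both HSPC-like clusters at equal weight it was 0.997, and in cells of 6000 to 12000 UMIs it was 1.33. With doublet calls kept, the class also held the further cluster led by Apoe and F2r. Against challenged once cells the fold was 0.76 (0.73 to 0.80), with 0 of 37 genes higher and 8 lower (Fen1, Cdc45, Gins2, Tk1, Tyms, Prim1, Rpa2 and Ung), where 4.21% of 7560 genes were that much higher and 16.2% that much lower. Over all draws Cdc45 (-0.51) was no longer among the lower genes and Dut (-0.60) was. Of all genes tested, 13.5% were then at least 1.5-fold lower. In cells of 6000 to 12000 UMIs, 320 rechallenged against 307 challenged once, that fold was 1.01. Median depth before drawing was 9527 in rechallenged, 14608 in challenged once and 8790 in unchallenged HSPC-like cells, and the median mitochondrial share of drawn cells was 4.66%, 2.98% and 3.004%. The part of depth and mitochondrial share in these folds was not tested.

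The HSPC-like class joined 2 clusters in unequal mix. Cluster 9, led by Hlf, Ly6a, Adgrl4 and Mecom, made up 40.7% of rechallenged, 52.3% of challenged once and 67.2% of unchallenged HSPC-like cells, and cluster 11, led by Cd34, the rest. In cluster 9 the summed level was 1941 in rechallenged, 2734 in challenged once and 1864 in unchallenged cells. In cluster 11 it was 2894, 3871 and 2985 in the same order of libraries. The challenged once library was thus highest in each cluster, with folds over unchallenged of 1.47 (1.38 to 1.56) in cluster 9 and 1.30 (1.21 to 1.39) in cluster 11. Rechallenged over unchallenged was 1.04 (0.96 to 1.13) and 0.97 (0.90 to 1.04). Over all draws, 1 of 28 genes in cluster 9 and 2 of 30 in cluster 11 were at least 1.5-fold higher in that comparison. By the same measure 1 and 4 were lower. Of all genes tested, 3.55% and 3.22% were that much higher and 19.8% and 14.1% that much lower. HSPC-like cells with a UMI of any of 6 stem markers had 2064 in rechallenged, 2713 in challenged once and 1658 in unchallenged cells.

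Counted by cell, 69.5% (65.8 to 73.0) of rechallenged, 78.6% (75.9 to 81.1) of challenged once and 58.3% (54.3 to 62.3) of unchallenged HSPC-like cells carried at least 3 replication UMIs (exact Clopper-Pearson intervals). Before drawing down the shares were 92.2%, 97.2% and 97.4%. Mature neutrophil-like cells, the class taken as background, gave 1.90% of rechallenged, 7.38% of challenged once and 12.1% of unchallenged cells, from 422, 298 and 388 cells. Their own depth was low, a median of 2516.5, 2593.5 and 4227 UMIs before drawing, and 256, 146 and 19 cells under 2000 UMIs were left out. Mature neutrophil-like cluster 14 held 436, 285 and 4 kept cells in the same order of libraries, and the background shares were not split by cluster. Among HSPC-like cells 12, 6 and 3 were left out.

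**Figure D2:**
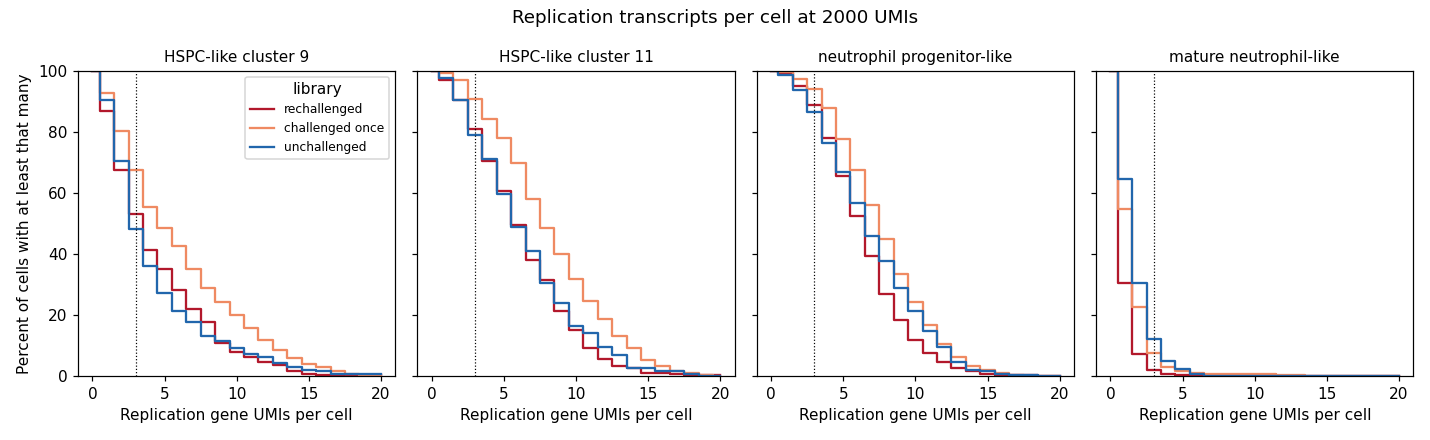
Percent of cells (y axis) with at least a given number of replication gene UMIs (x axis) at 2000 UMIs per cell, in both HSPC-like clusters, neutrophil progenitor-like cells and mature neutrophil-like cells, by library; the dotted line marks 3 UMIs. The challenged once line is above the others at 3 UMIs in the first 3 panels, and in mature neutrophil-like cells the unchallenged line is highest, at 12.1%.

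In neutrophil progenitor-like cells as one class, the challenged once library was again highest. The summed level was 2969 (2916 to 3022) in rechallenged, 3609 (3545 to 3674) in challenged once and 3236 (3156 to 3317) in unchallenged cells. Challenged once over unchallenged was 1.12-fold (1.08 to 1.15) and 0.999-fold under median-of-ratios scaling, with 1 of 38 genes, Ccne1 (0.59), at least 1.5-fold higher and 0 lower, where 6.27% of 7732 genes were higher and 2.32% lower. The Ccne1 call rests on 1 random draw of a low gene: its log2 ratio was 0.44 over all draws, 0.51 in a second draw, 0.46 without drawing down and -0.0040 at 1000 UMIs per cell. Rechallenged over unchallenged was 0.92-fold (0.89 to 0.95), with 1 gene higher, Rrm1, and 6 lower, Fen1, Cdca7, Rfc2, Tk1, Prim1 and Ung, where 4.31% of 7863 genes were higher and 6.49% lower. Over all draws Fen1 (-0.38) and Tk1 (-0.55) were not past 1.5-fold and Tyms (-0.78) was. Of all genes tested, 5.11% were then at least 1.5-fold lower. Rechallenged over challenged once was 0.82-fold (0.80 to 0.84), with 0 higher and 9 lower (Fen1, Cdca7, Gins2, Tk1, Tyms, Prim1, Rpa2, Ung and Ccne1; 1 under median-of-ratios scaling), where 2.23% of 8349 genes were higher and 11.4% lower. Over all draws Tk1 (-0.54) and Prim1 (-0.48) were not past 1.5-fold. Of all genes tested, 10.1% were then at least 1.5-fold lower. Rrm1 had 129 (118 to 141) in rechallenged, 101 (90.1 to 112) in challenged once and 64.7 (53.8 to 77.1) in unchallenged cells. Cdca7 had 64.3 (56.7 to 72.6) in rechallenged, 111 (100.3 to 123) in challenged once and 143 (126 to 161) in unchallenged cells. Tk1 had 48.4 (41.9 to 55.7) in rechallenged, 87.8 (78.0 to 98.4) in challenged once and 95.9 (82.6 to 111) in unchallenged cells. Rrm1 was highest in the rechallenged library, while Cdca7 and Tk1 were lowest there. The class joined 3 clusters in unequal mix: cluster 1 held 1456, 707 and 563 cells, cluster 4 held 571, 853 and 176, and cluster 18 held 19, 148 and 259 (rechallenged, challenged once, unchallenged). In cluster 1 the summed level was 2890 in rechallenged, 3401 in challenged once and 3142 in unchallenged cells, and challenged once over unchallenged was 1.08-fold (1.04 to 1.13). In cluster 4 the levels were 3163, 3839 and 3330 in the same order of libraries, a fold of 1.15 (1.08 to 1.23). In cluster 18, which had too few rechallenged cells for a value, the levels were 3331 in challenged once and 3386 in unchallenged cells, a fold of 0.98 (0.91 to 1.06). Rechallenged over challenged once was 0.85 (0.82 to 0.88) in cluster 1 and 0.82 (0.79 to 0.86) in cluster 4.

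Across the 11 classes plotted the summed level ran between 203 and 4751 in the rechallenged library. Erythroid-like cells had 4438 in rechallenged, 4285 in challenged once and 5182 in unchallenged cells, so here the unchallenged library was highest. Immature neutrophil-like cells had 2062, 1951 and 1755, and mature neutrophil-like cells 203 (173 to 235), 471 (418 to 530) and 573 (521 to 629) in the same order of libraries. The mature class joined cluster 13, with 242, 159 and 403 cells, and cluster 14, with 436, 285 and 4 (rechallenged, challenged once, unchallenged). No level was computed within these mature clusters, and the steps to mature cells given below carry the same mix. The immature class also joined clusters of different libraries, and within each of its clusters the rechallenged library was lowest of those with a value. In cluster 0 the level was 789 in rechallenged, 1204 in challenged once and 922 in unchallenged cells, in cluster 3 it was 2448, 3020 and 2899 in that order, and in cluster 8 it was 2431.5 in rechallenged and 2814 in challenged once cells. Along the neutrophil series the median log2 step was 0.12, 0.12 and 0.42 from HSPC-like to neutrophil progenitor-like cells, -0.52, -0.69 and -0.86 to immature and -1.70, -1.31 and -0.99 to mature neutrophil-like cells (rechallenged, challenged once, unchallenged). Rrm2 took the widest first step, reaching 236 in rechallenged, 265 in challenged once and 224 in unchallenged cells of the neutrophil progenitor-like class, against 60.8 in rechallenged, 80.6 in challenged once and 36.8 in unchallenged cells of the HSPC-like class. B lineage-like cells of the rechallenged library had 4751, against 2760 in challenged once and 3286 in unchallenged cells, and their clusters were unequally mixed. Within B lineage-like cluster 6 the levels were 5172, 5339 and 5574.

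**Figure D3:**
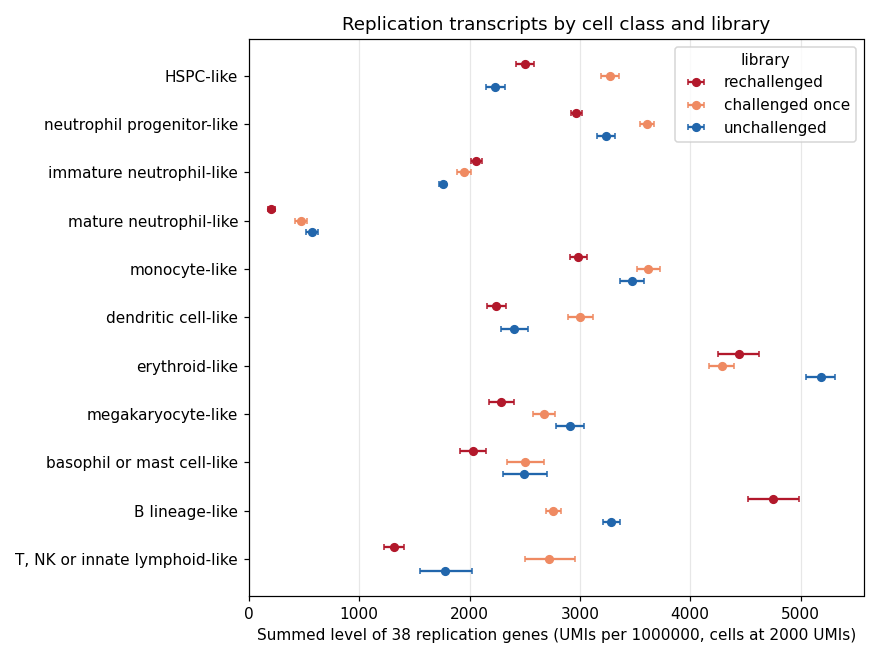
Summed level of the 38 replication genes (x axis, UMIs per 1000000, cells at 2000 UMIs) in 11 cell classes (y axis), 1 point per library with 95% Poisson intervals. HSPC-like challenged once cells lie at 3274, above rechallenged and unchallenged cells, while erythroid-like cells are highest in the unchallenged library at 5182.

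**Figure D4:**
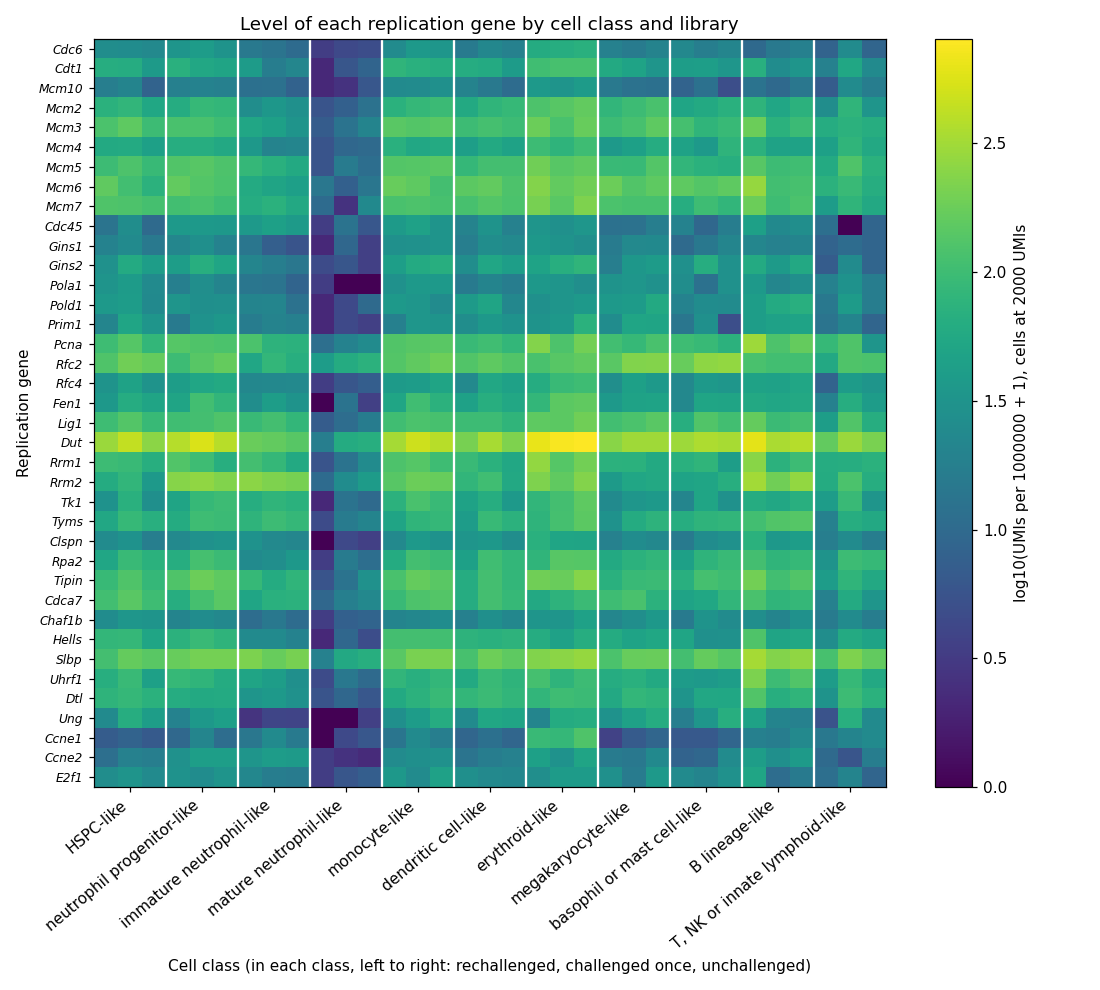
Level of each replication gene (rows, grouped by role) in each cell class, with rechallenged, challenged once and unchallenged columns side by side, as log10 of UMIs per 1000000 plus 1. Dut is among the brightest rows in most classes, and mature neutrophil-like columns are the darkest.

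Most genes tested leaned lower in the rechallenged library: the median log2 ratio of all genes was below 0 in all 11 classes, from -0.23 to -0.03 against unchallenged and from -0.23 to -0.12 against challenged once cells. A direction shared over classes is to be read against that lean. Some members were lower in the rechallenged library in nearly every class measured. Tyms was below challenged once and below unchallenged levels in 9 of 9 classes each, with medians of -0.59 and -0.57 on the log2 scale. Prim1 was below both in 8 of 8 classes, and Fen1 was below challenged once cells in 8 of 9 and below unchallenged cells in 8 of 8. Rfc2 was below each in 10 of 11 classes and Rpa2 in 9 of 10. Other members ran the opposite way against unchallenged cells: Rrm1 was higher in 9 of 10 classes, Mcm6 in 9 of 10 and Cdt1 in 8 of 9. Both comparisons share the rechallenged library. All classes of a group also come from the same 1 library, so these class counts are not repeated observations. The share of all genes with as uniform a direction over classes is not given here.

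**Figure D5:**
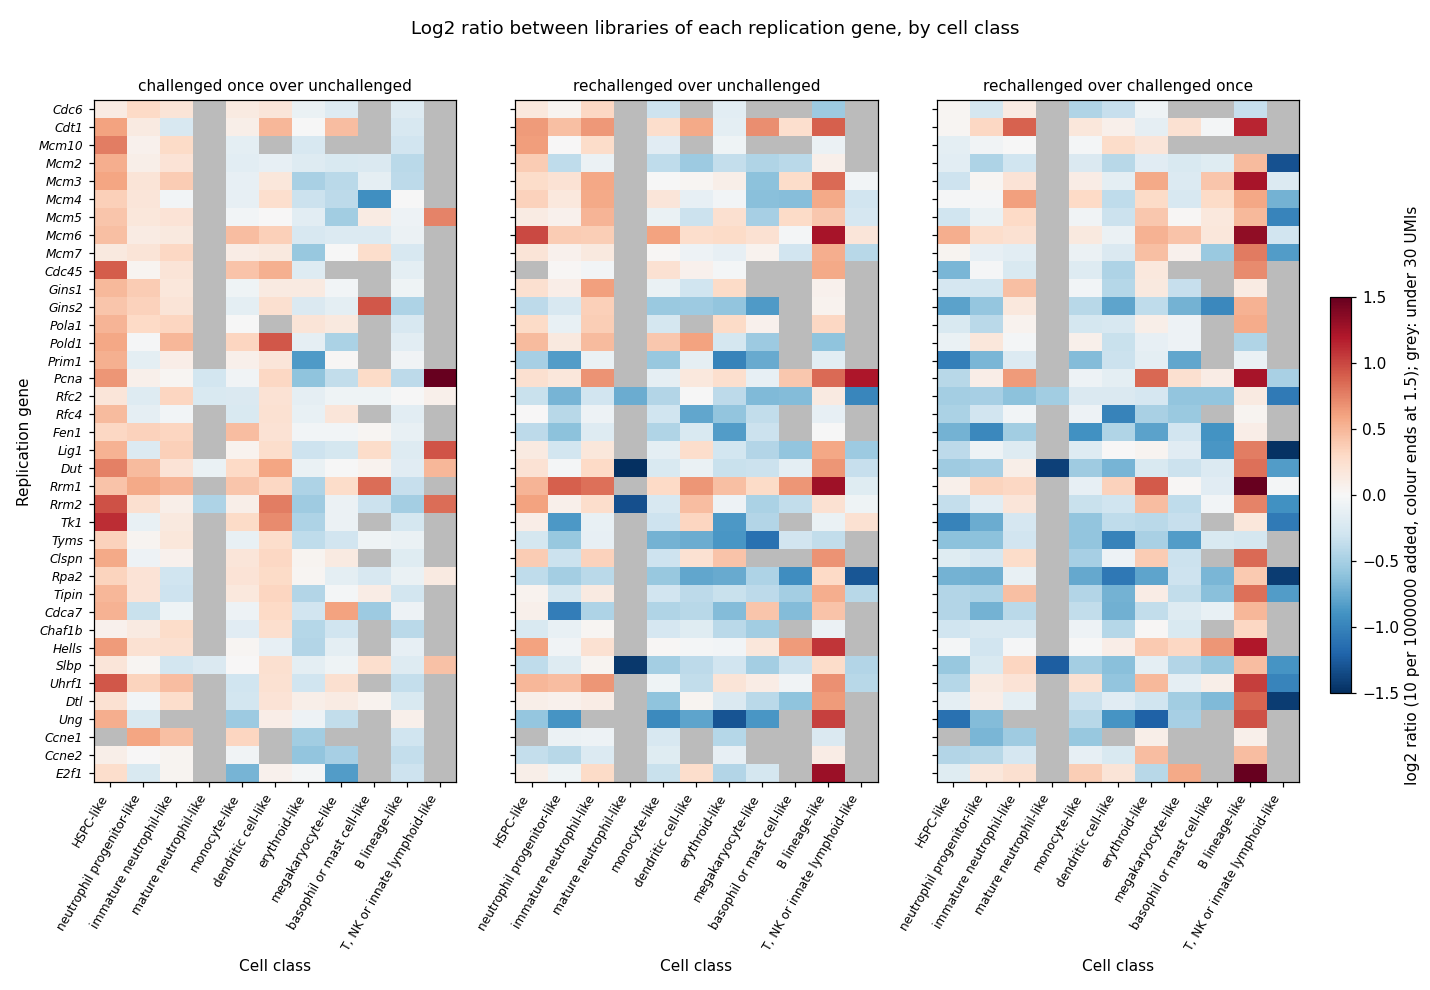
Log2 ratio of each replication gene (rows) in 11 cell classes (columns) for each comparison, 10 per 1000000 added, colours ending at 1.5 and grey where a pair had under 30 UMIs. The HSPC-like column of challenged once over unchallenged holds no ratio below 0, and Tyms and Prim1 are below 0 in every measured class of rechallenged over challenged once.

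Other genes of the pathway, from a list of 48 further replication genes, had the same order of libraries in HSPC-like cells for challenged once over unchallenged and for rechallenged over challenged once. Challenged once over unchallenged was 1.36-fold (1.28 to 1.43), with 7 of 39 measured genes at least 1.5-fold higher and 0 lower, beside 3.41% higher and 3.2% lower of all 7604 genes. Rechallenged over challenged once was 0.79-fold (0.75 to 0.83), with 0 of 40 higher and 8 lower, a share near the 16.2% of all 7560 genes that were lower. Asf1b, a histone chaperone, had 12.2 in rechallenged, 34.0 in challenged once and 27.8 in unchallenged cells. Gmnn, the inhibitor of Cdt1, had 57.0, 119 and 86.6, Orc6, an origin recognition subunit, had 22.0, 46.5 and 34.3, and Rfc3, a clamp loader subunit, had 25.8, 54.5 and 39.2 in the same order. Dscc1, part of an alternative loader, had 9.88, 14.0 and 3.27. A list of 26 mitotic genes was 1.52-fold (1.42 to 1.62) higher in challenged once than in unchallenged HSPC-like cells and 1.31-fold (1.21 to 1.41) higher in rechallenged than in unchallenged cells. Cluster 9 made up 40.7% of rechallenged and 67.2% of unchallenged HSPC-like cells, and the mitotic folds are not given by cluster.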

How the data were processed

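Per the labels, libraries were made with the 10x Single Cell 3' V2 kit; Cell Ranger 3.0.0 and build mm10 are named in the submitters' processing notes. The deposited values are raw UMI counts per gene and cell. Counts were used as deposited. Cells needed 500 UMIs or more, 300 genes or more and a mitochondrial share up to 10%. Scrublet doublet calls (expected 6%) were removed. Clusters (scanpy 1.11.5, leidenalg 0.10.2, 2000 variable genes, 30 components, 15 neighbours, resolution 1) were then named from 14 marker lists. The members, other replication genes, mitotic and histone genes, among others, were left out of clustering. Each cell was drawn down to 2000 UMIs; shallower cells were left out. Ratios add 10 per 1000000 to genes with at least 30 UMIs over a pair, and 1.5-fold marks a difference. UMIs mark transcript ends, so levels were not divided by length. With 1 library per group no test was run. Members and lists were chosen with earlier results of these data known. All 38 members could be named; full values went to at most 4 per role with the largest ratio in HSPC-like or neutrophil progenitor-like cells, plus Pcna, Mcm5, Rrm2, Tyms and E2f1, and 5 other replication genes by the same measure. Scripts were tested on simulated data. Alternatives are given in the closing section. Intervals cover counting error only.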

Additional observations from a re-analysis of the deposited data

Results flagged for a closer look

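The summed replication level differed in direction between HSPC-like cells and some other classes; these differences between classes were not tested. For challenged once over unchallenged, HSPC-like cells were at 1.47-fold, against 0.822 in mature neutrophil-like, 0.827 in erythroid-like, 0.919 in megakaryocyte-like and 0.84 in B lineage-like cells. Of these, the mature neutrophil-like, erythroid-like and B lineage-like classes joined clusters in unequal mix. Mature neutrophil-like cluster 13 held 159 challenged once and 403 unchallenged cells, and cluster 14 held 285 and 4. Erythroid-like cluster 12 held 481 and 313, and cluster 16 held 155 and 237. B lineage-like cluster 5 held 912 and 615, and within cluster 6 the challenged once level was also below the unchallenged one. For rechallenged over unchallenged, HSPC-like cells were at 1.12-fold, against 0.917 in neutrophil progenitor-like, 0.353 in mature neutrophil-like, 0.86 in monocyte-like, 0.934 in dendritic cell-like, 0.856 in erythroid-like, 0.787 in megakaryocyte-like, 0.813 in basophil or mast cell-like and 0.739 in T, NK or innate lymphoid-like cells. The direction of this HSPC-like fold did not hold in every setting, so the contrast with these classes depends on the processing. It was 0.992 without drawing down, 0.967 with doublet calls kept and 0.997 with both HSPC-like clusters at equal weight. With doublet calls kept, the HSPC-like class also held a further cluster led by Apoe and F2r. Mature neutrophil-like cluster 14 held 436 rechallenged and 4 unchallenged cells. For rechallenged over challenged once, HSPC-like cells were at 0.764-fold, against 1.06 in immature neutrophil-like and 1.72 in B lineage-like cells. The last 2 classes joined clusters in different mix: B lineage-like cluster 5 held 18 rechallenged and 912 challenged once cells, and within B lineage-like cluster 6 the fold was 0.97 (0.91 to 1.03). Within immature neutrophil-like clusters 0, 3 and 8 it was 0.66, 0.81 and 0.86, below 1 as in HSPC-like cells. For rechallenged over unchallenged the immature class was at 1.17-fold, and within clusters 0 and 3 at 0.86 and 0.84.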

How the results depend on the processing

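No paired analysis was possible because each group has 1 library. Folds are those of the summed replication level, and counts are of members past 1.5-fold. Apart from the average over all draws, the share of all genes past 1.5-fold was not computed under the alternative settings. Counts under those settings therefore stand without that background. Cell classes were named anew under each alternative clustering, so their make-up could change. With doublet calls kept, the HSPC-like class took in a cluster led by Apoe and F2r, genes that led the main megakaryocyte-like cluster. At resolution 2 it took in a cluster led by Cox6a2 and Flt3, genes that led a main dendritic cell-like cluster. In HSPC-like cells challenged once over unchallenged, 1.47-fold as reported, stayed above 1 in every alternative run: 1.38 in a second draw, 1.31 without drawing down, 1.23 with doublet calls kept, 1.36 with both clusters at equal weight and 1.32 in cells of 6000 to 12000 UMIs. The count of 10 higher genes became 2 without drawing down, 2 with doublet calls kept and 18 with 1 added per 1000000. Rechallenged over unchallenged, 1.12-fold as reported, changed direction: 0.992 without drawing down, 0.967 with doublet calls kept and 0.997 with both clusters at equal weight. It was 1.02 at 1000 UMIs, 1.05 in a second draw, 1.30 under median-of-ratios scaling, 1.05 at Leiden resolution 2, 1.05 on all variable genes and 1.33 in cells of 6000 to 12000 UMIs. Its 5 higher genes became 3 in a second draw, 2 without drawing down, 8 under median-of-ratios scaling, 1 with doublet calls kept, 2 on all variable genes and 3 over all draws. Its 0 lower genes became 1 at 1000 UMIs, at 4000 UMIs, in a second draw, at resolution 2, on all variable genes and over all draws, and 2 without drawing down, with 1 added and with doublet calls kept. With doublet calls kept, Rrm2 had a log2 ratio of -0.022 for rechallenged over unchallenged HSPC-like cells. Rechallenged over challenged once, 0.764-fold as reported, was 0.723 at 1000 UMIs, 0.889 under median-of-ratios scaling, 0.799 with the stricter cell filter, 0.726 on all variable genes, 0.732 with clusters at equal weight and 1.01 in cells of 6000 to 12000 UMIs. Its 0 higher genes became 1 at 1000 UMIs and 1 under median-of-ratios scaling, and its 8 lower genes became 4 under median-of-ratios scaling, 5 with the stricter filter and 13 at resolution 2.

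In neutrophil progenitor-like cells challenged once over unchallenged, 1.12-fold, was 0.999 under median-of-ratios scaling and 1.08 at resolution 2. Its 1 higher gene became 0 at 4000 UMIs, in a second draw, without drawing down, under median-of-ratios scaling, with the stricter filter, at resolution 2, on all variable genes and over all draws, and 2 with 1 added, with doublet calls kept and when only clusters holding 50 or more cells per library entered. Its 0 lower genes became 1 at 1000 UMIs, where Ccne1 had a log2 ratio of -0.0040. Rechallenged over unchallenged was 0.963 under median-of-ratios scaling. Rechallenged over challenged once was 0.790 without drawing down and 0.953 under median-of-ratios scaling, and its 9 lower genes became 1 under that scaling and 4 at resolution 2. Erythroid-like folds under median-of-ratios scaling were 0.859 for challenged once over unchallenged, 0.994 for rechallenged over unchallenged and 1.15 for rechallenged over challenged once, and the first was 0.794 with doublet calls kept. Over all kept cells, challenged once over unchallenged (1.19) was 1.14 at 1000 UMIs, 1.26 at 4000, 1.14 without drawing down and 0.976 under median-of-ratios scaling. Rechallenged over unchallenged (0.980) was 0.938 at 1000 UMIs, 0.883 without drawing down, 1.02 under median-of-ratios scaling and 0.937 with the stricter filter. Rechallenged over challenged once (0.822) was 0.776 at 4000 UMIs, 0.777 without drawing down, 1.01 under median-of-ratios scaling and 0.785 with the stricter filter. The cause of each change was not tested.

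The share of HSPC-like cells with at least 3 replication UMIs was 39.5%, 55.6% and 33.8% at 1000 UMIs and 88.8%, 93.5% and 87.9% at 4000 UMIs (rechallenged, challenged once, unchallenged). At least 1 UMI was carried by 92.7%, 95.7% and 92.6%, and at least 5 by 50.2%, 62.5% and 37.7%. On all variable genes the rechallenged share was 64.7%, and with doublet calls kept the unchallenged share was 65.7%. In neutrophil progenitor-like cells the shares were 55.4%, 65.3% and 58.9% at 1000 UMIs, 99.0%, 99.6% and 98.3% at 4000 UMIs, 99.3%, 99.5% and 98.5% for at least 1 UMI, and 65.6%, 77.7% and 66.9% for at least 5. Single-gene ratios were counted once per gene, class, comparison and setting, and 2636 stayed and 262 moved, with 2 reversed. Only ratios past 1.5-fold as reported could count as reversed. A change of sign in a smaller ratio was counted as stayed or moved. Low genes such as Ccne1 and Mcm10 rest on few UMIs, which limits what their ratios can show. The depth band, equal cluster weight and the average over all draws were chosen after seeing the data.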

Other observations

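Immature neutrophil-like cells gave another order for mitotic than for replication genes. The summed level of the 26 mitotic genes was 2196 in rechallenged, 2975 in challenged once and 2379.5 in unchallenged cells, and that of the 38 replication genes was 2062, 1951 and 1755. These cells sat in different clusters in each library: cluster 8 held 1079 of 1485 rechallenged, 67 of 1017 challenged once and 70 of 3393 unchallenged cells, and cluster 3 held 69, 357 and 1381. Within cluster 0 the mitotic level was 1876, 2964 and 2129 and the replication level 789, 1204 and 922, and within cluster 3 they were 2687, 3105 and 2744 and 2448, 3020 and 2899 (rechallenged, challenged once, unchallenged). Rechallenged cells were thus lowest for both lists in clusters 0 and 3. In the class as a whole they were lowest for mitotic genes but highest for replication genes. Cluster 8, which held most rechallenged cells of the class, has no mitotic level given here. Of these cells, 17.6% of rechallenged, 11.4% of challenged once and 12.9% of unchallenged ones carried at least 3 replication UMIs with fewer than 3 mitotic UMIs. In HSPC-like cells the same share was 43.9%, 43.8% and 44.1%, while cells with at least 3 of both made up 25.5%, 34.7% and 14.2%. These HSPC-like shares are not given by cluster, though the HSPC-like clusters were unequally mixed between libraries.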
